A study of Mus musculus with 18 samples.

Results

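Replication-dependent core histones are the H2A, H2B, H3 and H4 proteins around which newly copied DNA is wound. In the deposited table, 65 of the 47643 genes carry their names. These genes were chosen by name alone, as every gene whose symbol places it in the Hist1, Hist2, Hist3 or Hist4 cluster and in the H2A, H2B, H3 or H4 family. The 65 genes carry 64 names, since Hist2h2bb stands for 2 gene identifiers, 1 protein-coding and 1 annotated as a lincRNA. Hist1h2aj and Hist3h2bb-ps are annotated as pseudogenes, so not every member encodes a histone. The H2A family has 20 members, H2B has 20, H3 has 12 and H4 has 13. By cluster, 50 belong to Hist1, 11 to Hist2, 3 to Hist3 and 1 to Hist4.

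All RNA was total RNA of 5G6GR mouse embryonic stem cells, grown without feeder cells on gelatin in serum with LIF, puromycin and blasticidin. RT-RamDA, a reverse transcription that copies each RNA repeatedly by strand displacement, was run on 10 pg of that RNA with 5 primer sets and 3 libraries each. The sets were not-so-random primers plus oligo(dT) (NSRdT), random hexamers plus oligo(dT) (N6dT), not-so-random primers (NSR), random hexamers (N6) and oligo(dT) alone (dT), all amplified by 17 PCR cycles. NSR primers are hexamers chosen to avoid ribosomal RNA (rRNA). The other 3 libraries (bulk) were made from 200 ng of RNA depleted of rRNA with RNase H and amplified by 7 cycles, so they differ from RT-RamDA in amount, depletion, kit and cycles together. The labels do not state whether the 3 libraries of a group stem from different cultures, and p-values therefore measure a spread between libraries that may be technical.

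Core histone genes are transcribed mainly in S phase, when chromatin is assembled on replicated DNA. Their mRNAs are the known animal mRNAs that end without a poly(A) tail: a conserved stem-loop shortly after the stop codon is bound by SLBP, and the U7 snRNP directs the cut behind it. Some core histone genes also carry a later polyadenylation signal, from which tailed transcripts can be made. Oligo(dT) anneals to A tails, while NSR and N6 can anneal along the whole RNA.

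The stem-loop was found after the stop codon in 42 of the 65 members, in transcripts of GENCODE vM21 on GRCm38. It was searched as 6 bases starting with GG, a loop of 4 bases and the exact reverse complement of the 6. Most of the other members have transcripts there that end at the stop codon or a few bases after it, where it could not be found. Hist1h2bc, with 742 bases after the stop codon, Hist1h2bq, Hist1h2br and Hist2h2be go on for longer, and the rule found none in them. A further 4 members have no coding sequence in GENCODE vM21. The windows below show it for the members on which the results turn, read 5′ to 3′ along the RNA strand. The 6 bases of each stem arm are in capitals and the 4 loop bases between them are in lower case.
Hist1h2ap: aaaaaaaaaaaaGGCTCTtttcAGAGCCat
Hist1h2ae: aaaaaaaacaaaGGCTCTtttcAGAGCCat
Hist1h2bg: tcctaacccaaaGGCTCTtttcAGAGCCac
Hist1h3b: ctggaacccaaaGGCTCTtttcAGAGCCac
Hist1h4d: ccaaaaaccaaaGGCCCTtttcAGGGCCac
Hist4h4: cccatccacaaaGGCCCTtttcAGGGCCca
The first 5 lie in the Hist1 cluster, at chr13:21833027-21833056 (minus strand), chr13:23570666-23570695 (minus), chr13:23571831-23571860 (plus), chr13:23752808-23752837 (plus) and chr13:23581938-23581967 (plus), in the order printed. The window of Hist4h4 is at chr6:136803996-136804025 (minus). In each, the stem-loop lies in the 3′ untranslated part of the last exon. All members of H2A, H2B and H3 in which it was found had the same stem letters, GGCTCT with AGAGCC. The first GG and the pairing of the arms were set by the search. Of the 12 H4 members with a stem-loop, 10 had GGCCCT with AGGGCC and 2, Hist1h4b and Hist1h4j, had GGTCCT with AGGACC. Hist1h2ap stands out among the windows by a run of 12 A bases before the stem, and Hist1h2ae by a run of 8.

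Total estimated counts per library ranged from 5333546 to 10234690, and core histones received between 3693 and 111659 of them. Genes of rRNA and of mitochondria took 38.3 to 39.3% of counts with NSRdT, 50.3 to 51.8% with N6dT, 44.9 to 45.9% with NSR, 54.1 to 54.7% with N6, 10.2 to 10.7% with dT and 12.3 to 13.1% in bulk. Levels are CPM, estimated counts scaled to the library total, and therefore contain that difference, whereas log2 fold changes are from edgeR's quasi-likelihood test with TMM scaling, which centres on genes in general. All 6 embryonic stem cell markers were at 1 CPM or more in every group, and 4 fibroblast markers summed to 9.0 CPM or less. Bulk replicate 2 stood apart by primitive endoderm markers, which summed to 739 CPM there, against 143 and 152 CPM in bulk replicates 1 and 3, and the part of this in the results was not tested.

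All 4 families were higher with NSR and N6 than with oligo(dT) alone, and H2A by the smallest factor. H2A, which with H2B forms the outer dimers of the nucleosome, had 429, 394 and 386 CPM with NSRdT, 463, 381 and 402 with N6dT, 477, 382 and 392.5 with NSR, 488, 457 and 469 with N6, 331, 333 and 293 with dT, and 2275, 2200.5 and 2322 in bulk. H2B had 836, 848 and 775 CPM with NSRdT, 823, 802 and 801 with N6dT, 761, 767 and 782 with NSR, 842, 827 and 908 with N6, 50.9, 73.7 and 40.9 with dT, and 3141, 2964 and 3063 in bulk. In both families the dT libraries were the lowest, the bulk libraries the highest, and the 4 sets with random or not-so-random primers lay between them without overlap with either. By the labels the 5 sets differ in their primers, and the RNA came from many cells together. These levels therefore give neither the share of cells in S phase nor the histone RNA per cell.

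H3 and H4 form the inner tetramer of the nucleosome. H3 had 273, 217 and 243 CPM with NSRdT, 199.9, 239 and 211 with N6dT, 468, 331 and 390.0 with NSR, 314, 323 and 376 with N6, 25.6, 40.8 and 10.1 with dT, and 2043, 1978 and 2157 in bulk. H4 had 250.1, 184 and 206 CPM with NSRdT, 196, 179 and 159 with N6dT, 289, 237 and 273 with NSR, 208, 203 and 239.6 with N6, 31.5, 40.0 and 22.8 with dT, and 3413, 3377 and 3687 in bulk. The same order held, with every H3 and H4 library of the 4 sets with random or not-so-random primers above every dT library and below every bulk library.

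**Figure D1:**
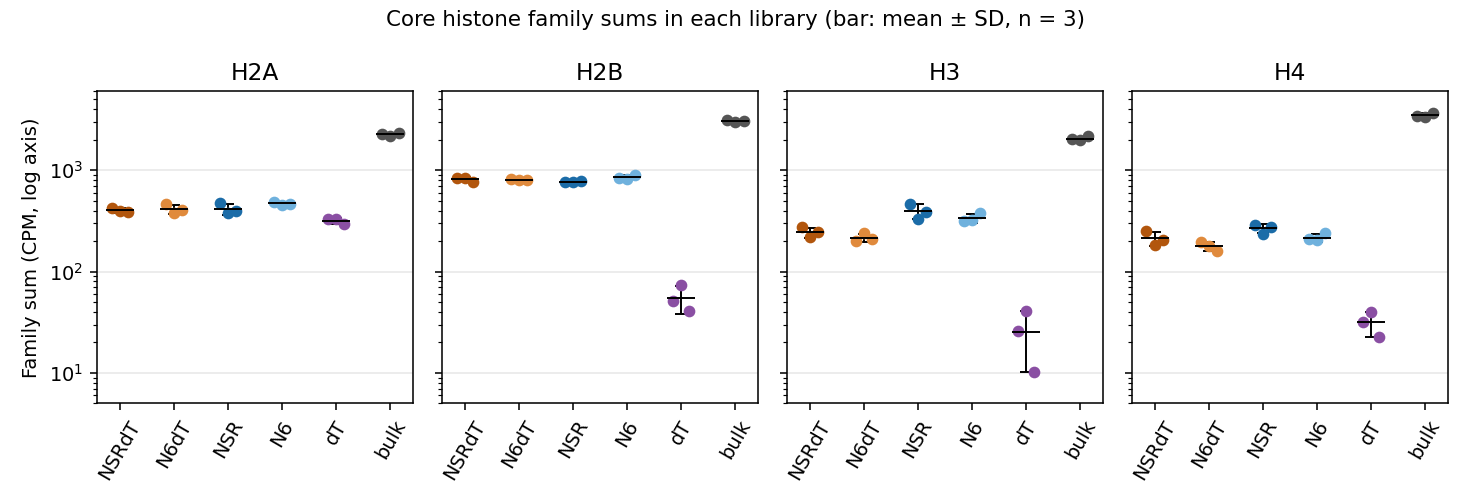
Summed level of each core histone family (CPM of library totals, log axis) in the 18 libraries, with a point per library and bars for the mean ± SD of 3. In the H2B, H3 and H4 panels the dT libraries lie far below the other RT-RamDA libraries, while for H2A they lie at 293 to 333 CPM, just under them.

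Families were set side by side per kilobase of deposited transcript, which for 12 members holds the coding sequence only. Whether their order depends on these lengths was not tested. On that scale H4 was the highest family in bulk, with 7354 ± 361 CPM per kb (SD, n = 3). H2B followed with 6216 ± 185, H2A with 4648 ± 145 and H3 with 3496 ± 167. With N6 the order of levels was H2B at 1777 ± 83.3 CPM per kb, H2A at 1013 ± 21.7, H3 at 657 ± 72.4 and H4 at 445 ± 32.1. H4 was thus last with N6 and first in bulk, and no neighbouring families overlapped within either group. With dT, H2A stood at 670 ± 49.9 CPM per kb, and H2B at 97.8 ± 43.9, H4 at 59.0 ± 27.1 and H3 at 50.4 ± 27.8 overlapped one another. As a share of core histone counts, H4 made up 12.7% with NSRdT, 10.96% with N6dT, 14.4% with NSR, 11.5% with N6 and 7.20% with dT, against 32.1% in bulk.

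The first question was which core histone RNAs random and not-so-random primers capture that oligo(dT) does not. N6 raised all 4 families over dT, by a log2 fold change of 5.07 ± 0.17 (SE) for H2B (adjusted p = 3.95e-12), 4.84 ± 0.36 for H3 (9.23e-08), 3.90 ± 0.21 for H4 (1.79e-09) and 1.67 ± 0.13 for H2A (1.22e-07). NSR raised them over dT by 4.57 ± 0.17 for H2B (1.38e-11), 4.72 ± 0.36 for H3 (1.15e-07), 3.85 ± 0.21 for H4 (1.72e-09) and 1.15 ± 0.13 for H2A (9.04e-06), all by edgeR with Benjamini-Hochberg adjustment over the whole table. In that table, with members replaced by family sums, 12.2% of all genes were called for N6 and 13.1% for NSR against dT. Whether the families differ from each other in this change was not tested. The 2 comparisons share the dT libraries.

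Of the 65 members, 57 passed the filter on low counts in these libraries and 8 did not. N6 against dT called 43 higher and 0 lower at an adjusted p under 0.05, beside 7.35% of all tested genes called higher, 5.13% called lower and 12.5% in either direction. At an unadjusted p under 0.05 the edgeR test had 47 higher and 0 lower, and DESeq2 called 43 higher and 0 lower. Of all 15682 genes, 4240 were at that unadjusted p in either direction, and DESeq2 called 2058 higher and 1151 lower. NSR against dT called 39 higher and 1 lower, beside 7.79% of genes higher and 5.5% lower, 13.3% in all. The median log2 fold change of the tested members was 4.60 with N6 and 4.40 with NSR, beside 0.14 and 0.16 for all genes. By family, N6 raised 11 of 18 tested H2A members, 14 of 16 H2B, 9 of 11 H3 and 9 of 12 H4. Scaling by library totals alone put the all-gene median at -0.94 for N6 and at -0.58 for NSR against dT, and left 40 members higher and 1 lower with N6, and 36 higher and 1 lower with NSR. Of all 15682 genes, that scaling called 619 higher and 3894 lower with N6, and 726 higher and 2709 lower with NSR.

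Detection showed the same split. At 1 count or more in all 3 libraries there were 53 members with NSRdT, 53 with N6dT, 55 with NSR, 53 with N6, 12 with dT and 62 in bulk. With dT, 49 members had a count in some library, and 16 had none in any. For many of the rest the dT level rested on 1 library: Hist1h2bl had 15.3, 0 and 0 CPM, Hist1h2bm 0, 21.5 and 0, Hist2h3b 14.97, 0 and 0.166, and Hist1h3c 0, 11.6 and 0.

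Hist1h3b was among the 16 members with no count in any dT library. It had 20.3, 25.0 and 12.5 CPM with NSRdT, 16.1, 15.3 and 23.9 with N6dT, 39.9, 32.8 and 22.0 with NSR, 39.1, 49.4 and 35.2 with N6, 0 in all 3 dT libraries, and 251, 235 and 257 in bulk. With a floor of 3 counts per library for dT, it was at least 138-fold higher with N6 than with dT. On the same floor Hist1h2ai was at least 225-fold higher, the protein-coding Hist2h2bb identifier at least 174-fold higher, and Hist1h4c at least 32.0-fold higher with N6, and Hist1h3g at least 109-fold higher. Hist1h2bg had 60.1, 69.1 and 77.2 CPM with N6 and 0.572, 0 and 0 with dT. Hist1h4d had 68.4, 72.2 and 79.1 CPM with N6, against 0.115, 0.637 and 2.89 with dT, a log2 fold change of 7.02 ± 0.63 (edgeR, adjusted p = 8.88e-07). These genes come from all 4 families, and for Hist1h3b, Hist1h2bg and Hist1h4d no N6 library overlapped a dT library.

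Hist1h2ap, an H2A gene of the Hist1 cluster, moved against its family. It had 169, 139 and 141 CPM with NSRdT, 163, 133 and 159 with N6dT, 95.6, 68.1 and 65.8 with NSR, 103, 106 and 119 with N6, 285, 259 and 251 with dT, and 315, 309 and 316 in bulk. All dT libraries were above all other RT-RamDA libraries and below bulk, and the sets that contained dT were above those without it. Its log2 fold change was -1.03 ± 0.18 for NSR against dT (edgeR, adjusted p = 0.00104), and -0.17 ± 0.18 for N6 against dT (adjusted p = 0.608), which reached -1.28 and was called with library totals alone. For dT against bulk it was 0.02 ± 0.09 (adjusted p = 0.923). Hist1h2ap took 37.1% of H2A counts with NSRdT, 36.6% with N6dT, 18.2% with NSR, 23.2% with N6, 83.2% with dT and 13.8% in bulk.

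Without Hist1h2ap, the other 19 H2A genes summed to 253 ± 7.95 CPM with NSRdT, 263 ± 32.0 with N6dT, 341 ± 35.9 with NSR, 362 ± 19.7 with N6, 54.0 ± 17.1 with dT and 1953 ± 57.8 in bulk (SD, n = 3 each). The dT libraries of this remainder, at 42.5 to 73.6 CPM, lay far below every other group, as they did for the H2B family. Single genes are uncertain here, since 93.4% of the 31-base words of Hist1h2ap also occur in Hist1h2ao, whose level was 5.04 CPM or less in all 18 libraries. Reads from those words cannot be told apart between the pair.

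**Figure D2:**
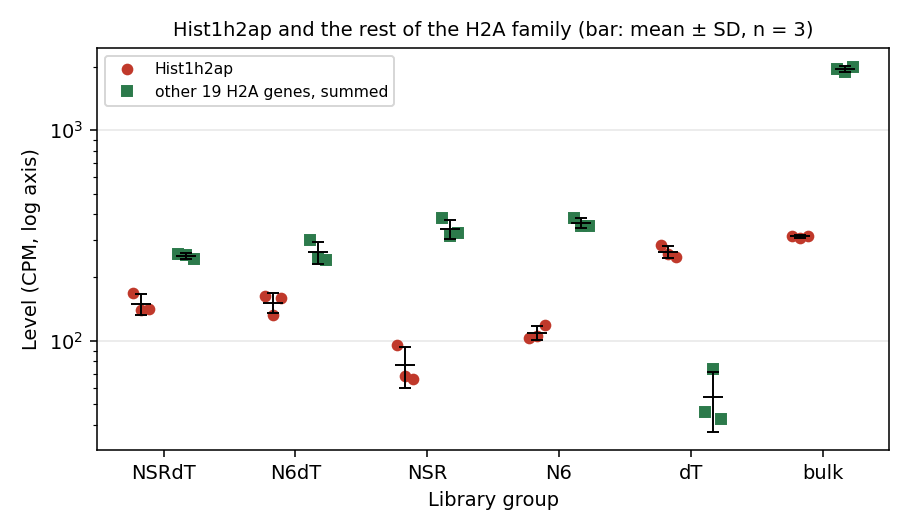
Level of Hist1h2ap (circles) and of the other 19 H2A genes summed (squares), in CPM of library totals on a log axis, with a point per library and bars for the mean ± SD of 3. The dT group is the only RT-RamDA group in which Hist1h2ap, at 251 to 285 CPM, lies above the rest of its family, at 42.5 to 73.6 CPM.

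Beyond Hist1h2ap, 3 members averaged 10 CPM or more with dT. Hist1h2bc had 106, 96.0 and 94.8 CPM with N6 and 23.0, 29.8 and 31.8 with dT, so it was higher with N6 (log2 fold change 2.92 ± 0.21, edgeR adjusted p = 6.81e-08). Hist1h2ae had 32.9, 7.79 and 23.8 CPM with N6 and 25.5, 28.0 and 15.4 with dT, with overlap and no call (1.00 ± 0.49, adjusted p = 0.205). Hist1h2an had 9.17, 20.2 and 5.45 CPM with N6 and 3.38, 23.4 and 14.2 with dT, also with overlap (0.88 ± 0.88, adjusted p = 0.585). In all, 35 members averaged 1 CPM or more with dT, and apart from the 4 just named they lay between 1.05 and 7.29 CPM. In CPM of library totals, the mean of 8 members with N6 was below that with dT: Hist1h2ap, Hist1h2ae, Hist1h2an, Hist1h2ad, Hist1h3c, Hist1h4m and, at under 1 CPM in both groups, Hist2h2aa2 and Hist2h2be. That count depends on the scale, since on library totals alone the all-gene median of N6 against dT was -0.94. With TMM scaling the changes of Hist1h2ae and Hist1h2an were positive, as given above. The share of all genes with a lower mean is not given here.

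Transcript ends were set beside these levels after the value of Hist1h2ap had been seen, so what follows is a description. A run of 8 or more A bases lies in the annotated transcripts of 6 members, Hist1h2ac, Hist1h2ae, Hist1h2ao, Hist1h2ap, Hist1h2bc and Hist1h2be. Their sum was 247 CPM with N6, 318 with dT and 949 in bulk, while the other 59 members summed to 1638 CPM with N6, 113 with dT and 9925 in bulk. Hist1h2ap made most of the first sum with dT. Without it the remaining 5 summed to 137 CPM with N6, 53.1 with dT and 636 in bulk, so they too were lower with dT than with N6. Of the 6, Hist1h2ac and Hist1h2ao were at 0 in every dT library. The run of Hist1h2ac lies behind the stem-loop in a GENCODE vM21 transcript of 2482 bases, while its deposited transcript has 476 bases. The polyadenylation signal AATAAA was searched on the RNA strand after the stem-loop, or after the stop codon where no stem-loop was found. It was found in 16 members, whose sum with dT was 3.71% of bulk, against 4.02% for the 49 without it. The search used GENCODE vM21, and the deposited transcripts of some of the 16 are shorter. Hist1h2bc has 736 deposited bases against 1156, and Hist1h2ae 460 against 704. Whether reads from such longer ends were counted was not tested, which limits the percentages by signal. The 49 members without the signal include some whose transcript in GENCODE vM21 ends at the stop codon, and 4 without a coding sequence, which were not searched. Absence of the signal was therefore not established for all of them. Without Hist1h2ap and Hist1h2ao the value of members in which the signal was not found was 1.11%. Within H2B, the 8 members with the signal were at 5.38% of bulk with dT and the 12 without it at 0.842%. Hist1h2bc made most of the first value, since the other 7 members with the signal were at 1.5% of bulk, with 6.71 ± 3.21 CPM with dT and 446 ± 18.02 in bulk. These sums without Hist1h2ap, Hist1h2ao or Hist1h2bc were likewise chosen after seeing the data.

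Against bulk, each family sum was lower with each primer set, and H4 was the lowest with all 5. For H4 the log2 fold change was -3.31 ± 0.13 with NSRdT, -3.10 ± 0.11 with N6dT, -2.71 ± 0.11 with NSR, -2.65 ± 0.10 with N6 and -6.54 ± 0.24 with dT, with adjusted p-values of 3.94e-05, 1.13e-05, 3.14e-05, 1.61e-05 and 7.52e-05 in edgeR. For H2B the values were -1.18 ± 0.06, -0.72 ± 0.07, -0.98 ± 0.07, -0.47 ± 0.07 and -5.53 ± 0.24 in the same order of sets. H3 gave -2.36 ± 0.11, -2.06 ± 0.08, -1.37 ± 0.14, -1.25 ± 0.10 and -6.08 ± 0.53, and H2A gave -1.78 ± 0.07, -1.25 ± 0.11, -1.43 ± 0.12, -0.90 ± 0.07 and -2.57 ± 0.08. All 20 sums were called, beside 4.7% of all genes in the table with family sums for NSRdT, 4.26% for N6dT, 8.38% for NSR, 6.87% for N6 and 18.6% for dT. The highest adjusted p was that of H2B with N6 (0.0103), which lost its call without bulk replicate 1 (-0.44) or bulk replicate 3 (-0.47). The 5 comparisons share the bulk libraries, and differences between families were not tested.

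**Figure D3:**
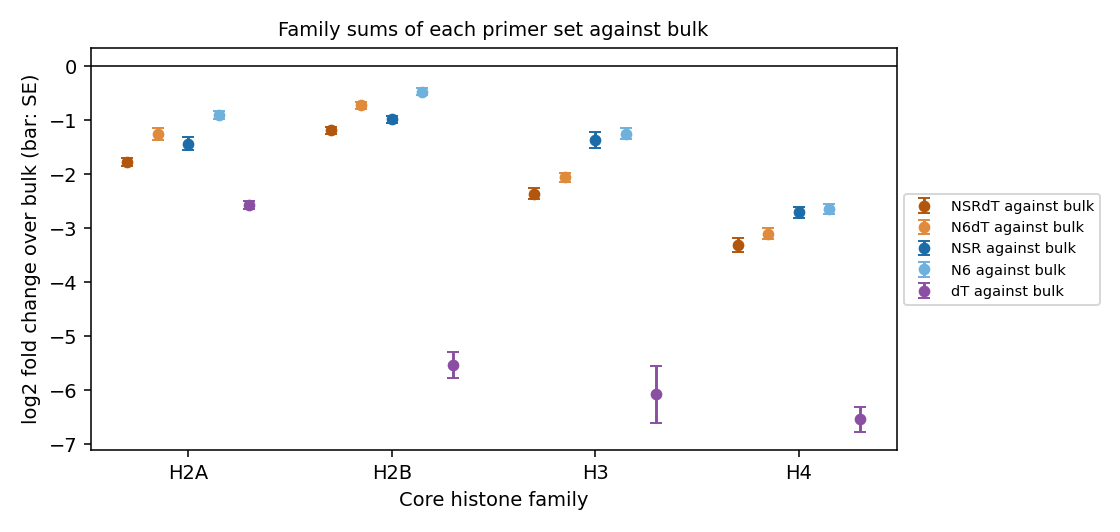
Log2 fold change of each family sum over bulk in edgeR (bars are SE, 3 libraries a side), for the 5 primer sets within each family. H4 lies lowest with every set, from -2.65 with N6 to -6.54 with dT, and with dT the H2A sum stays at -2.57 while the other 3 families lie under -5.

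In library totals, core histones reached 15.5% of their bulk level with NSRdT, 14.9% with N6dT, 17% with NSR, 17.3% with N6 and 3.96% with dT. With rRNA and mitochondrial genes left out of the totals of every library, the shares became 22.0%, 26.6%, 27.2%, 33.2% and 3.86%. H4 reached 11.9% with N6 on that scale, and H2B 53.9%. Without any TMM scaling the median of all genes moved from -0.03 to -1.39 for N6 against bulk, to -1.03 for NSR, to -1.23 for N6dT and to -0.75 for NSRdT, and from -0.19 to -0.45 for dT. Family changes against bulk are therefore relative to genes in general, and were larger on library totals.

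Members were tested singly as well. NSRdT called 1 member higher than bulk and 39 lower of 57 tested, beside 2.69% of all genes higher and 2.58% lower, 5.28% in all. N6dT called 3 higher and 37 lower of 57, beside 2.7% and 2.09%, 4.79% in all. NSR called 3 higher and 36 lower of 58, beside 4.01% and 4.65%, 8.67% in all, and N6 called 4 higher and 32 lower of 58, beside 3.31% and 3.9%, 7.21% in all. On library totals alone the splits were 1 and 51 with NSRdT, 0 and 50 with N6dT, 2 and 48 with NSR, and 2 and 50 with N6. Many genes in general were lower on that scale. It called 179 higher and 3742 lower of 15553 genes with NSRdT, and 129 and 7958 of 15234 with N6dT. With NSR it called 180 and 5922 of 15418, and with N6 142 and 8570 of 15207. For the members tested, the median log2 fold change over bulk was -2.58 with NSRdT, -1.92 with N6dT, -1.91 with NSR, -1.46 with N6 and -6.86 with dT, while the all-gene medians were -0.04, -0.03, -0.03, -0.03 and -0.19. With dT, 0 were higher and 47 lower of 55, beside 6.9% of all genes higher and 11.9% lower, 18.8% in all. At an unadjusted p under 0.05 that edgeR test had 1 higher and 52 lower, and DESeq2 called 1 higher and 48 lower. Of all 15708 genes, 4753 were at that unadjusted p in either direction, and DESeq2 called 1513 higher and 2269 lower. The dT count rested on the bulk libraries, being 20 without bulk replicate 1, 33 without replicate 2 and 20 without replicate 3. Without bulk replicate 2, which stood apart by endoderm markers, the counts in either direction were 36 with NSRdT, 31 with N6dT, 33 with NSR and 30 with N6. Counts over all genes in these fits with a library left out are not given here.

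H4 genes were lower than bulk almost throughout. All 12 tested H4 members were called lower with NSRdT, with N6dT and with dT, and 11 of 12 with NSR and with N6. Hist1h4h had 26.9, 33.9 and 16.3 CPM with NSRdT, 18.8, 15.3 and 11.1 with N6dT, 19.4, 14.8 and 17.3 with NSR, 10.2, 10.9 and 10.99 with N6, 0, 3.47 and 0.765 with dT, and 485, 482 and 511 in bulk. Its log2 fold change over bulk with N6 was -4.16 ± 0.11 (edgeR, adjusted p = 2.57e-06). Hist1h4n averaged 8.89 ± 3.36 CPM with N6 and 579 ± 32.1 in bulk, and Hist1h4j 0.617 ± 0.399 with N6 and 124 ± 16.5 in bulk. Hist1h4c averaged 9.53 ± 4.14 CPM with N6 and 337 ± 14.04 in bulk (-3.78 ± 0.29, adjusted p = 0.000411). Hist1h4d, at 68.4, 72.2 and 79.1 CPM with N6 and 576, 559.8 and 599 in bulk, changed by -1.62 ± 0.10 (adjusted p = 0.000148). The H4 gene that was not called with N6 was Hist1h4k, with 26.7 ± 2.28 CPM with N6 and 90.2 ± 10.9 in bulk.

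Several abundant H2A, H2B and H3 genes were lower too. Hist1h2bg had 60.1, 69.1 and 77.2 CPM with N6, against 689, 652 and 645 in bulk (-1.90 ± 0.12, edgeR adjusted p = 0.000164). Hist2h2aa1, an H2A gene of the Hist2 cluster, had 119, 97.1 and 111 CPM with N6, 3.19, 0 and 0 with dT, and 549.7, 547 and 561 in bulk. Its changes over bulk were -0.97 ± 0.10 with N6 (adjusted p = 0.00201) and -8.74 ± 1.18 with dT (0.00907), and the call with dT was lost without bulk replicate 1 or 3. Hist1h3f had 19.7, 20.6 and 29.2 CPM with N6 and 251, 227 and 259 in bulk (-2.04 ± 0.18, adjusted p = 0.000838).

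A few members were higher than bulk. Hist1h2bl, an H2B gene, had 221, 211 and 203 CPM with NSRdT, 173, 160.4 and 139 with N6dT, 182, 153 and 179.6 with NSR, 193, 167 and 186 with N6, 15.3, 0 and 0 with dT, and 138, 136 and 142 in bulk. Except for N6dT replicate 3, every library of the 4 sets other than dT was above every bulk library even in CPM. Its log2 fold changes over bulk were 1.32 ± 0.09 with NSRdT (edgeR, adjusted p = 0.000398), 1.38 ± 0.12 with N6dT (0.000893), 1.31 ± 0.12 with NSR (0.000897) and 1.75 ± 0.10 with N6 (9.42e-05). On library totals alone they were 0.61, 0.18, 0.30 and 0.39, called with NSRdT and N6 only, and in a fit of all 18 libraries none of the 4 was called.

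Hist1h3h was higher with NSR, at 171, 135 and 157 CPM, against 86.4, 85.6 and 103 in bulk (1.76 ± 0.15, adjusted p = 0.000625 in edgeR). With N6 it had 72.0, 43.7 and 63.4 CPM and no call (0.74 ± 0.20, adjusted p = 0.0738), a sign that turned to -0.62 on library totals alone. Hist1h2an had 9.04, 15.8 and 4.02 CPM with NSR, 9.17, 20.2 and 5.45 with N6, and 1.79, 1.69 and 2.33 in bulk. It was called higher with NSR (3.31 ± 0.62, adjusted p = 0.0226) and with N6 (3.94 ± 0.58, 0.0091), and each call was lost without any 1 bulk library. Hist1h2ai was higher with N6 (1.41 ± 0.16, adjusted p = 0.00266), but its CPM of 80.9, 60.5 and 59.5 overlapped those of bulk at 67.3, 60.1 and 67.3, and on library totals the call was lost. Hist1h2br was called higher with N6 (1.03 ± 0.12, 0.00277) and N6dT (0.76 ± 0.10, 0.00948), yet lay under bulk on library totals alone (-0.34 and -0.44). The N6dT call of Hist1h2br was lost without any 1 bulk library.

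The extent of the deposited transcript model was set beside the change from bulk. In 12 members every deposited transcript holds the coding sequence only, in 49 it goes beyond it, and 4 have no coding sequence in GENCODE vM21. The coding-only members summed to 611 ± 19.6 CPM with NSRdT, 501 ± 37.8 with N6dT, 697 ± 77.6 with NSR, 622 ± 46.0 with N6, 46.9 ± 33.6 with dT and 1037 ± 49.2 in bulk (SD, n = 3 each). They thus kept 58.9%, 48.3%, 67.2%, 60% and 4.52% of bulk. The members with longer models summed to 1054 ± 75.3 CPM with NSRdT, 1101 ± 31.7 with N6dT, 1116 ± 76.7 with NSR, 1236 ± 72.2 with N6, 382 ± 39.1 with dT and 9790 ± 304 in bulk. They kept 10.8%, 11.2%, 11.4%, 12.6% and 3.91% of bulk.

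The split held within each family with N6. Coding-only H2A members kept 63.7% of bulk and longer ones 15.7%, H2B members kept 67.1% and 20.1%, H3 members 52.4% and 12.0%, and H4 members 29.6% and 5.59%, the first H4 value being Hist1h4k alone. Hist1h2bl, Hist1h2ai, Hist1h2an and Hist1h3h, all named above as higher than bulk, belong to the coding-only class, whereas Hist1h2br has a longer model. These 4 genes also share much of their sequence with other members, 88.6% of the 31-base words of Hist1h2bl, 92.0% for Hist1h2ai, 89.0% for Hist1h2an and 94.2% for Hist1h3h. The part of shared reads, of transcript models and of priming in the split was not tested.

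**Figure D4:**
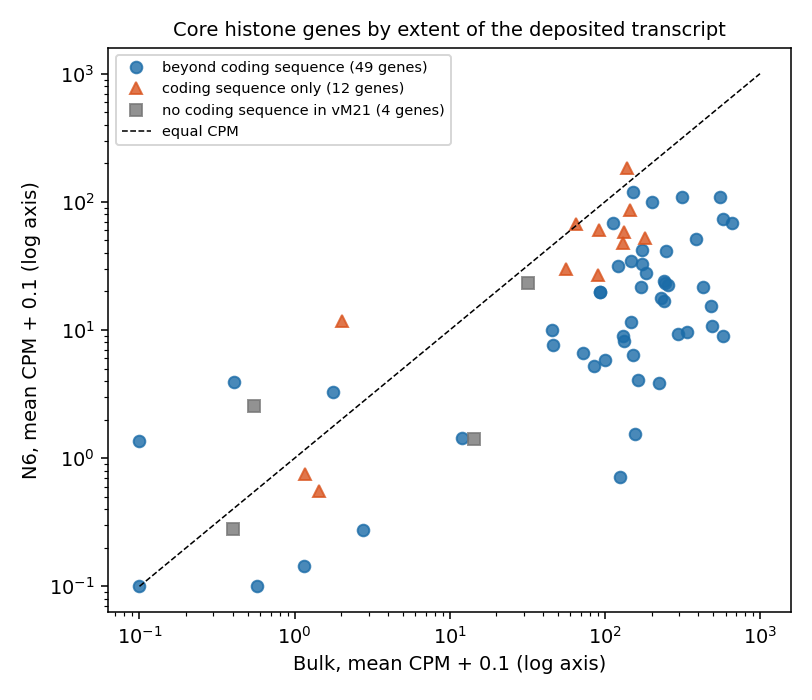
Mean level of each core histone gene with N6 (vertical axis) and in bulk (horizontal axis), as CPM + 0.1 on log axes, marked by the extent of its deposited transcript. Some of the 12 coding-only genes lie near the dashed line of equal CPM. Hist1h2an lies above the line, and others, such as Hist1h4k, lie below it. Most of the 49 genes with longer models lie well below the line.

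NSR was set against N6 over the libraries with and without added dT. The family table called 0.173% of all genes. H2A was lower with NSR by the family test (log2 fold change -0.52 ± 0.09, edgeR adjusted p = 0.0195), although in CPM the groups overlapped. The call held without N6dT replicate 2, NSR replicate 1 or NSRdT replicate 1, and was lost without any other of the 12 libraries, with values between -0.58 and -0.46. H2B changed by -0.48 ± 0.10 (adjusted p = 0.106), H3 by -0.20 ± 0.22 and H4 by -0.13 ± 0.13 (each adjusted p = 1), and the last 2 turned positive on library totals alone. Of 57 members, 0 were called higher and 1, Hist1h2ap, lower (-0.67 ± 0.13, adjusted p = 0.0481), beside 0.0446% and 0.128% of all genes, 0.172% in all. At an unadjusted p under 0.05 edgeR had 0 higher and 12 lower, and DESeq2 called 0 higher and 5 lower. Of all 15682 genes, 848 were at that unadjusted p in either direction, and DESeq2 called 36 higher and 75 lower. The median of the tested members was -0.48, beside 0.01 for all genes. The call of Hist1h2ap held without NSR replicate 1 and was lost without any other of the 12 libraries. Library totals alone, under which the all-gene median was 0.42 in place of 0.01, gave 1 member higher and 0 lower, beside 526 higher and 14 lower of 15682 genes.

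Adding dT to N6 or NSR lowered 3 families, in a table where 2.2% of all genes were called. H3 changed by -0.91 ± 0.22 (edgeR, adjusted p = 0.0391), H4 by -0.54 ± 0.13 (0.0459), H2A by -0.36 ± 0.09 (0.0474) and H2B by -0.24 ± 0.10 (0.461). In CPM, every NSRdT library of H3 was below every NSR library, and every N6dT library below every N6 library. These calls were narrow: H3 kept its call without NSR replicate 2 alone, H4 without NSRdT replicate 1 alone, and H2A without N6dT replicate 1 or NSR replicate 2, with values of -0.97 to -0.83, -0.61 to -0.49 and -0.41 to -0.29 over the 12 libraries left out in turn. On library totals alone none of the 3 was called.

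Of 57 members, added dT called 0 higher and 1 lower, beside 1.8% of all genes higher and 0.376% lower, 2.17% in all. At an unadjusted p under 0.05 edgeR had 1 higher and 8 lower, and DESeq2 called 1 higher and 4 lower. Of all 15682 genes, 1402 were at that unadjusted p in either direction, and DESeq2 called 421 higher and 162 lower. The median of the tested members was -0.52, beside -0.02 for all genes. The called member was Hist1h3b (-1.18 ± 0.27, adjusted p = 0.0341), and its call held without N6dT replicate 3, NSR replicate 3 or NSRdT replicate 2 and was lost without any other library. Hist1h2ap changed by 0.48 ± 0.13 with added dT (edgeR, adjusted p = 0.0699), and on library totals alone it was called, at 0.72, when 1 member was higher and 0 lower. That scaling called 513 higher and 30 lower of 15682 genes. Whether the effect of NSR differed with added dT was tested as an interaction in edgeR, and 0 of 57 members and 0 of 4 families were called, with 0 members at an unadjusted p under 0.05, beside 10 of 15682 genes called.

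By cluster, Hist2 had the smallest share of its bulk level with dT, 0.826%, against 4.39% for Hist1, 4.93% for Hist3 and 3.93% for Hist4. The 11 Hist2 genes, within chr3:96219865-96279001, summed to 198, 213 and 205 CPM with NSRdT, 209.5, 168 and 197 with N6dT, 290.3, 261 and 290.0 with NSR, 259, 221 and 241 with N6, 22.1, 6.19 and 3.34 with dT, and 1261, 1268 and 1298 in bulk. They made up 2.40% of core histone counts with dT, 11.8 to 15.2% with the other sets and 11.7% in bulk. Hist1h2ap made most of the Hist1 level with dT: without it Hist1 was at 1.61% of bulk, and Hist2 made up 14.3, 2.72 and 2.87% of core histone counts in the 3 dT libraries, against 11.9, 12.4 and 11.9% in bulk. The gap between Hist1 and Hist2 thus rested largely on that gene, and the first dT library lay above the bulk libraries. The 50 Hist1 genes, of which 49 lie within chr13:21715763-23934851, summed to 1438 ± 95.0 CPM with NSRdT, 1394 ± 50.8 with N6dT, 1536 ± 127 with NSR, 1609 ± 88.7 with N6, 411 ± 56.7 with dT and 9363 ± 339.6 in bulk. Cluster sums carry no test of their own, and some Hist2 genes share all their 31-base words with loci outside the core histones.

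Hist3 and Hist4 are small. Hist3h2a, an H2A gene of the Hist3 cluster on chromosome 11, had 20.3, 15.8 and 16.2 CPM with NSRdT, 6.23, 8.61 and 9.53 with N6dT, 11.9, 10.9 and 5.43 with NSR, 12.2, 5.92 and 4.67 with N6, 2.81, 1.68 and 2.79 with dT, and 44.2, 51.4 and 43.2 in bulk. NSRdT was above the other RT-RamDA groups without overlap, and its change over bulk was -0.69 ± 0.21 (edgeR, adjusted p = 0.12), against -3.99 ± 0.37 with dT (0.00238). The H2B gene Hist3h2ba and the H2B pseudogene Hist3h2bb-ps stayed at 3.15 CPM or less in all 18 libraries. Hist4h4, the only Hist4 gene, on chromosome 6, had 21.7, 16.8 and 17.7 CPM with NSRdT, 22.0, 22.0 and 24.7 with N6dT, 21.7, 24.2 and 26.1 with NSR, 22.1, 26.8 and 34.5 with N6, 3.02, 12.0 and 6.90 with dT, and 182, 182 and 193 in bulk. It was higher with N6 than with dT (3.04 ± 0.44, adjusted p = 0.000189) and lower with N6 than in bulk (-1.37 ± 0.18, 0.00543). Hist1h2aa and Hist1h2ba, variants made mainly in testis, were at 2.81 CPM or less in all 18 libraries.

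Replicates varied more with RT-RamDA than in bulk. Over members at 10 CPM or more, the median coefficient of variation was 0.200 with NSRdT (37 members), 0.226 with N6dT (36), 0.219 with NSR (38), 0.195 with N6 (37) and 0.228 with dT (4), against 0.0484 in bulk (53). Over all genes at that level it was 0.262, 0.242, 0.266, 0.245 and 0.350 with the same sets, and 0.0763 in bulk. The median share of 31-base words that a member has in common with other genes was 80.8% in H2A, 53.4% in H2B, 63.0% in H3 and 47.9% in H4. Family sums remove the split of reads among members of a family, but not that between members and other loci. All words of Hist2h2aa1 also occur in Gm20633, those of Hist2h3b in Gm20628 and those of Hist2h3c1 in Gm20634. How reads were assigned between them was not tested.

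Factors that make and end histone mRNAs were called in both directions. Of 28 listed genes 27 were tested, and N6 against dT called 2 higher and 3 lower, 18.5% beside 12.5% of all genes, with a list median of -0.15 beside 0.14. NSR against dT called 2 higher, 7.41% beside 7.79% of all genes called higher, and added dT called 1 lower, 3.7% beside 0.376%. Against bulk, 2 were higher with NSRdT, 1 was higher with N6dT, 1 was higher and 1 lower with NSR, 2 higher and 1 lower with N6, and 1 higher and 2 lower with dT. In either direction that was 7.41% of the list with NSRdT, 3.7% with N6dT, 7.41% with NSR, 11.1% with N6 and 11.1% with dT, beside 5.28%, 4.79%, 8.67%, 7.21% and 18.8% of all genes. Slbp, which encodes the stem-loop binding protein, was called in none of the 9 comparisons, with means of 57.2 CPM with NSRdT, 41.5 with N6dT, 47.0 with NSR, 40.8 with N6, 115 with dT and 85.9 in bulk. Rnu7, the U7 RNA, was listed at 0 in all 18 libraries. Casp8ap2, a factor of histone mRNA processing, was higher with N6 than with dT (1.17 ± 0.35, edgeR adjusted p = 0.036) and with NSR than with dT (1.41 ± 0.35, 0.0131). Pou2f1, an activator of H2B promoters, was likewise higher with N6 (2.51 ± 0.52, 0.00448) and NSR (2.58 ± 0.52, 0.00346).

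Lsm11, a protein of the U7 snRNP, had 0, 0.131 and 0.262 CPM with N6, against 26.3, 0.197 and 36.9 with dT (-6.12 ± 1.53, edgeR adjusted p = 0.0148). In bulk it had 17.3, 19.3 and 16.7 CPM, so it was lower with N6 there too (-5.64 ± 0.77, 0.00652). The second dT library lay with the N6 libraries. Npat, a transcriptional activator of histone genes, was higher with NSRdT than in bulk (1.05 ± 0.12, adjusted p = 0.00512).

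Replacement histones are made from polyadenylated mRNAs outside S phase as well. Of 9 such genes, 5 were called lower with N6 than with dT, beside 5.13% of all genes called lower, and the list median was -1.05 beside 0.14. With NSR 6 were lower than with dT, beside 5.5% of all genes, and the median was -1.31 beside 0.16. With dT against bulk 5 were higher and 1 lower, beside 6.9% and 11.9% of all genes, with a median of 0.64 beside -0.19. Added dT called 3 higher, beside 1.8% of all genes. These directions against dT are opposite to those of the 4 core histone families.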

How the data were processed

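The authors deposited each library as estimated counts per transcript, with GENCODE names per the file headers. The submitters' processing notes name bcl2fastq 2.16.0.10 and mm10. Aligner, quantifier and counting strand: not given in the sources used here. Estimated counts were summed per gene identifier (47643 genes from 115125 entries) and rounded. The 92 ERCC entries were kept out of totals and tests. CPM are scaled to library totals.

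Members and gene lists were chosen with earlier results of these data known. The test was edgeR's (4.0.16, R 4.3.3) two-sided quasi-likelihood F test, after TMM and filterByExpr. P-values were adjusted by Benjamini-Hochberg across the whole table, with calls at an adjusted p under 0.05. SE is the size of the log2 fold change over the square root of F. Contrasts between primer sets came from 1 model of 15 RT-RamDA libraries. Contrasts with bulk used 6 libraries each. Family tests used the same table with members replaced by 4 sums. The fits were tested on simulated data. For N6 against dT, 8.96% of changes of log2 1, 32.8% of log2 2 and 62.1% of log2 4 were recovered. For N6 against bulk these shares were 10.4%, 43.3% and 77.3%. Most changes of log2 1 or 2 were thus missed there, and a member without a call may still differ. Far fewer genes were called in the simulated data, 72 of 14716 for N6 against dT, beside 1957 of 15682 in the real data. For N6 against bulk 92 of 14212 were called, beside 1096 of 15207. The adjustment was therefore stricter in the simulated data, and the recovered shares need not hold for the real fits. Means and SDs used Python 3.11.15, numpy 2.4.6 and pandas 2.3.3, and figures matplotlib 3.10.9. Named members are the 3 most abundant of each family, those at 1 CPM or more with dT, those against their family, all of Hist3 and Hist4, and Hist1h2aa and Hist1h2ba. For processing factors the rule takes Slbp, Rnu7, the 2 highest by level and, in each comparison, the 2 of lowest p, and not all are printed. Hist1h2ai, Hist1h2an, Hist1h2br, Hist1h3g, Hist1h4c and Hist1h4j, and members listed by count or class, were in part chosen after their values were seen. Stem-loops, AATAAA, A runs and shared words of 31 bases were read from GENCODE vM21, in which 51 of 70 transcripts matched in version and length and 2 were matched by symbol. Alternatives were DESeq2 1.42.0, its size factors, library totals with and without rRNA-annotated and mitochondrial genes, no filter, other sets of libraries, the replicate number as a block and each library left out.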

Additional observations from a re-analysis of the deposited data

How the results depend on the processing

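The N6 and NSR against dT calls of all 4 families and the bulk calls of H2A, H3 and H4 kept direction and call in every alternative run, as did H2B against bulk except with N6. For N6 against bulk, H2B was -0.48 and not called in a fit of all 18 libraries, and -0.52 to -0.44 with a library left out. NSR against N6 lost H2A on library totals alone (-0.11) and without rRNA and mitochondrial genes in the totals (-0.40), with -0.58 to -0.46 leaving out libraries, while H2B gained a call with DESeq2 (-0.49), with no filter (-0.48) and with only the libraries compared (-0.48). Added dT lost H2A on library totals (-0.12), without rRNA and mitochondrial genes (-0.25), with no filter (-0.35) and with only the libraries compared (-0.36), where H2B gained a call (-0.24). It lost H3 (-0.67 and -0.80) and H4 (-0.30 and -0.44) on the same 2 scalings. Leaving out libraries gave -0.41 to -0.29, -0.97 to -0.83 and -0.61 to -0.49 for H2A, H3 and H4.

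Called members numbered 25 with NSRdT, 22 with N6dT, 23 with NSR and 21 with N6 against bulk when all 18 libraries shared 1 fit. Of all 16766 genes tested there, 361, 322, 701 and 584 were called in the same order. With only the libraries compared, N6 against dT called 26 and NSR against dT 22, beside 1100 of 12537 and 1132 of 12862 genes. NSR against N6 called 5 with DESeq2, 0 without rRNA and mitochondrial genes, 7 with no filter and 4 with only the libraries compared, and added dT 5, 1, 4 and 6. In that order, all genes called numbered 111, 24, 89 and 34 for NSR against N6. For added dT they numbered 583, 379, 405 and 355. The genes tested numbered 15682, 15521, 33131 and 14932 in these settings. Leaving out libraries gave 31 to 43 for NSRdT, 28 to 43 for N6dT, 31 to 45 for NSR, 30 to 43 for N6 and 20 to 53 for dT, all against bulk, 39 to 42 and 36 to 41 for N6 and NSR against dT, and 0 to 1 for NSR against N6 and for added dT. Calls over all genes are not given for fits with a library left out, so these ranges lack their background. On library totals alone Hist1h2ap with N6dT (-1.04), Hist1h2bc with N6dT (-1.15) and N6 (-1.03), Hist1h2br with N6dT (-0.44), NSR (-0.59) and N6 (-0.34) and Hist1h3h with N6 (-0.62) turned below bulk. The causes were not tested.

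Same-numbered libraries were not paired, since the correlation of their deviations lay from -0.0339 to 0.0361 (7819 genes) and only 3 of 18 libraries had the closest match under the same number. With the replicate block, N6 against dT called 41 members, NSR against N6 2 and added dT 1, beside 1718, 28 and 303 of 15682 genes. Added dT lost H3 (-0.92) and H4 (-0.55) there. Left with 1 fewer library, a group of 2 was fitted with the spread pooled. Low counts with dT, 3693 to 4937 core histone counts per library, limit single members there.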
